A study of Notophthalmus viridescens with 18 samples.

Results

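This report concerns senescent (SEN) against proliferating (PRO) A1 cells, a myogenic line from the limb mesenchyme of the newt Notophthalmus viridescens. Its members are 6 of the 18 RNA-seq libraries of the series, the 3 titled SEN and the 3 titled PRO. SEN cells received 20 µM etoposide, a topoisomerase II poison that breaks DNA, together with 1 µM Nutlin-3a for 24 h, and then stayed in 1 µM Nutlin-3a, which frees p53 from Mdm2, until RNA was taken on day 12. PRO cells received the DMSO vehicle, were passaged at day 6 and were also collected on day 12. Both groups were wild type, were kept in 10% fetal calf serum and gave RNA through the same kind of column. Because SEN cells were still in Nutlin-3a, the senescent state and the presence of the drug cannot be told apart, and neither can time since the last passage. All cells came from 1 line, and the sources do not say whether replicates were separate cultures. The p-values therefore measure the spread between replicate libraries, which may be technical. In the main fit that spread was pooled over all 18 libraries, those of the other groups included.

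Senescence is a lasting arrest of cell division that stress such as DNA damage brings on. In mammals, senescent cells lose Lamin B1 from the nuclear lamina, release HMGB proteins from the nucleus, build up lysosomal beta-galactosidase and secrete a mixture of cytokines, growth factors and matrix proteases known as the senescence-associated secretory phenotype. In salamander limb regeneration, senescent cells appear and are then cleared. In adult newts, muscle fibres of the limb stump give rise to mononucleate progenitors that divide.

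Reads were assigned to 27395 entries of a de novo transcriptome, called transcripts here, which have no genome positions. SEN libraries held 37870716, 31537351 and 45257419 estimated reads, and PRO libraries held 44196962, 37725006 and 44402253. Levels are given as CPM, the read count of a transcript divided by its library's size as adjusted by TMM, in the order of replicates 1 to 3. CPM does not correct for length, so it serves to compare libraries and not genes. A transcript was called higher or lower in SEN when the quasi-likelihood test of edgeR gave a p under 0.05 after Benjamini-Hochberg adjustment over all tested transcripts, and every adjusted p below comes from that test unless another fit is named. Log2 fold changes are SEN over PRO, with ± giving the standard error. Gene names are the symbols or closest protein hits, of this newt or of other species, that the study's supplementary tables give. A symbol and its closest hit can differ, and entries of similar genes may share reads.

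Of 23107 transcripts tested, 11755 were called, which is 50.9%. Of these 6526 (28.2% of those tested) were higher in SEN and 5229 (22.6%) were lower. The change was at least 4-fold for 974 transcripts called higher and for 544 called lower. SEN and PRO libraries did not overlap for 12906 tested transcripts, or 55.9%. Against this background a call on its own sets no transcript apart, and the size of its change has to be read beside the median of all tested transcripts, which was 0.27 under TMM. That median was 0.14 under RLE scaling and 0.63 on log2(TPM + 1), where 94.7% of calls were higher in SEN against 55.5% under TMM. TPM was used without a TMM or RLE factor, so all values on that scale are to be read beside its own median. Directions below are therefore relative to the scaling, and called transcripts described below that turn on the TPM scale are named with that value. Some of those described but not called were above 0 on log2(TPM + 1) and below 0 under TMM. They were Fgf8 (0.99), Axin2 (0.19), Fgfr3.1 (1.25), Fgfr3.2 (0.012), Wnt2 (0.64), F2RL3 (0.82), Bmp2.2 (0.89) and Cd247.2 (0.027).

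The 2 states differed in how reads were spread over transcripts. The 100 transcripts with the most reads held 31.7% to 38.5% of reads in SEN libraries and 43.4% to 44.2% in PRO libraries, without overlap (exact permutation test, two-sided, p = 0.1, the smallest that 3 against 3 libraries can give). Between 25291 and 25440 entries had reads in SEN libraries, against 23671 to 24179 in PRO libraries. TMM factors, which offset such differences, were 1.21 to 1.37 in SEN libraries and 0.617 to 0.710 in PRO libraries. Change ran with level. Among 7180 tested transcripts under 1 CPM, 1660 were called higher and 264 lower, with a median of 0.68. Among 181 transcripts at 1000 CPM or more, 4 were called higher and 164 lower, with a median of -1.51. The fall of the median with level was also present on log2(TPM + 0.1), at 1.24 below 1 CPM, 1.42 from 1 to 10 CPM and -0.35 from 1000 CPM upward.

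**Figure D1:**
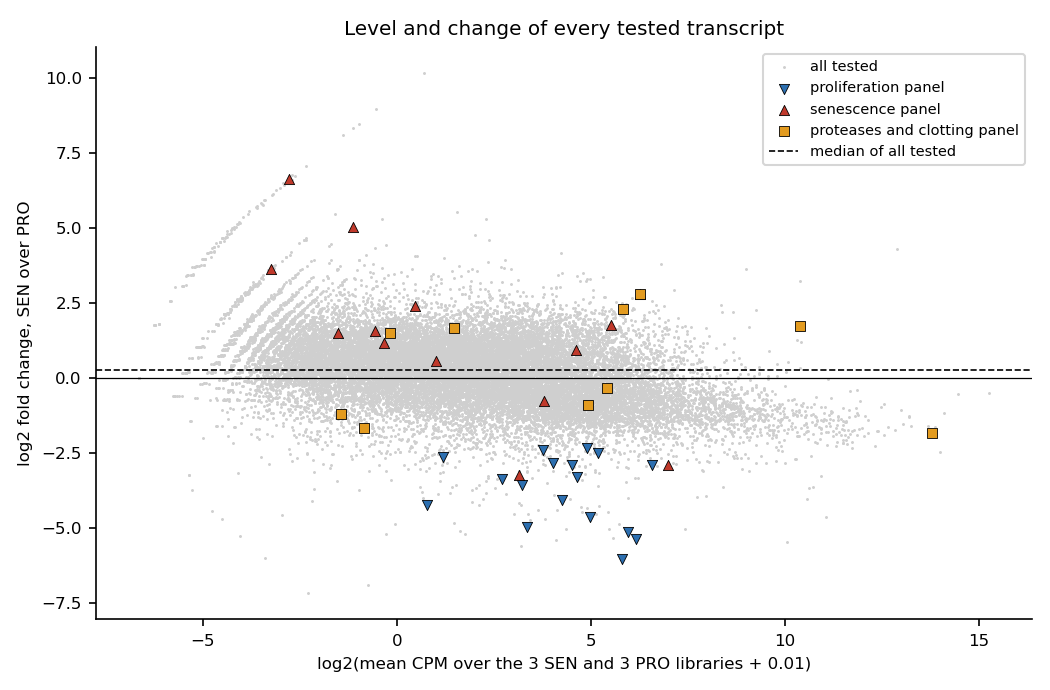
Level (log2 of mean CPM + 0.01 over the 6 libraries) against log2 fold change of SEN over PRO for each of 23107 tested transcripts in grey, with 3 transcript panels marked. Proliferation transcripts (blue) lie between -6.03 and -2.35, far below the dashed median of 0.27, and the grey cloud bends downward at high levels.

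Transcripts for cell division fell steeply in SEN. The study's proliferation panel holds 17 transcripts for cyclins, kinetochore proteins and DNA replication factors. All 17 were called lower in SEN, beside 22.6% of all tested transcripts. Their median was -3.38 on the log2 scale, beside 0.27 for all tested transcripts. The study chose its 11 panels on these samples, so the panel counts here and below are not independent evidence of direction. Cyclin B1 (Ccnb1, comp125600_c0_seq1), which drives entry into mitosis, had 1.37, 1.89 and 1.77 CPM in SEN libraries, against 95.9, 127 and 105 CPM in PRO libraries. The groups were far apart, and the change of -6.03 ± 0.30 (adjusted p = 2.71e-11) was the largest of the 10 steepest falls among well-covered transcripts. Its partner kinase Cdk1a (comp35510_c0_seq1) had 1.81, 4.30 and 4.21 CPM in SEN libraries and 94.5, 139 and 129 CPM in PRO libraries (-5.14 ± 0.35, adjusted p = 7.98e-10). Cdc20, which activates the anaphase-promoting complex, had 2.16, 4.69 and 3.33 CPM in SEN libraries and 141, 171 and 111 CPM in PRO libraries (-5.39 ± 0.39, adjusted p = 1.91e-09). All 3 SEN libraries lay below all 3 PRO libraries for each of these mitotic regulators. The other B-type cyclins followed, Ccnb2 at -4.96 ± 0.36 and Ccnb3 at -4.64 ± 0.26.

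Replication factors fell as well, without overlap between groups. Mcm7 (comp18947_c0_seq1), a subunit of the replicative helicase, had 24.8, 20.3 and 22.3 CPM in SEN libraries and 252, 118 and 136 CPM in PRO libraries. SEN replicates were nearly level, while PRO replicate 1 stood above the other two, and the change was -2.91 ± 0.29 (adjusted p = 9.29e-08). The primase subunit Prim2 (-2.85 ± 0.27), the flap endonuclease Fen1 (-2.51 ± 0.22), the clamp loader subunit Rfc3 (-2.39 ± 0.26) and the origin recognition subunit Orc6 (-2.62 ± 0.29) fell in a narrow range. Kinetochore transcripts ranged from Spc24 at -2.35 ± 0.20 to Ska1 at -4.06 ± 0.26. Each of the 17 calls held with any library left out. On log2(TPM + 1) limma called 16 of the 17 lower, beside 801 of all 23107 tested transcripts. Cdc20 was at -3.85 there, and Rfc3, at -0.47, was not called (limma adjusted p = 0.363).

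**Figure D2:**
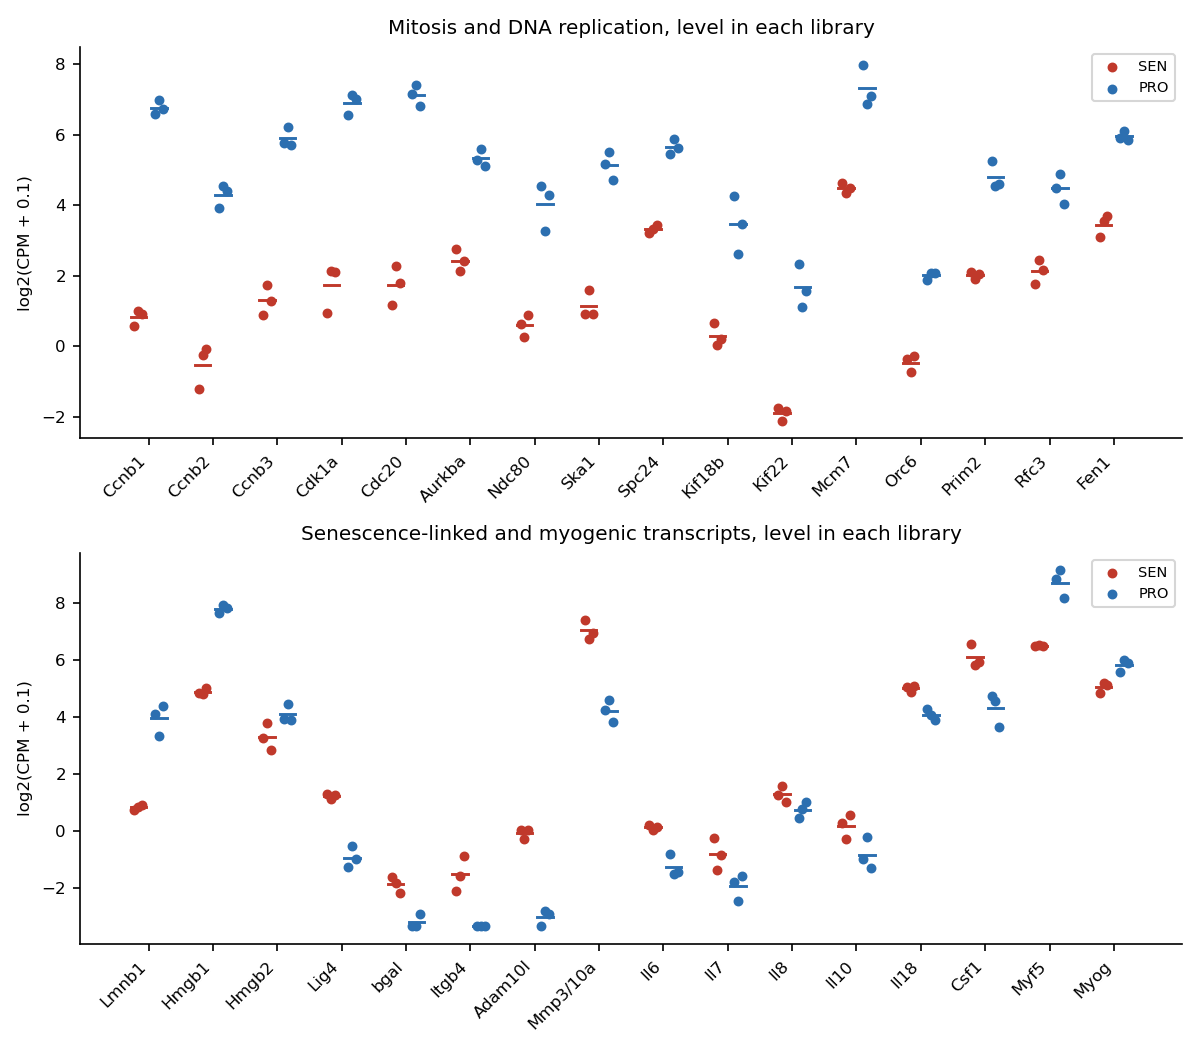
Level in each library, as log2(CPM + 0.1), of 16 proliferation transcripts (top) and of senescence-linked and myogenic transcripts (bottom). Each point is a library and each bar the mean of 3, with SEN in red to the left of PRO in blue. In the top panel every SEN point lies below every PRO point of the same transcript.

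The senescence panel, which mixes nuclear proteins that senescent cells lose with secreted factors that they gain, split accordingly. Of its 15 transcripts 14 were tested, and 11 were called higher and 3 lower, beside 28.2% and 22.6% of all tested transcripts. The median was 1.53 beside 0.27 for all tested transcripts, but 0.71 beside 0.63 on log2(TPM + 1). On log2(TPM + 0.1) it was 1.93 beside 1.18, so the gap on TPM depended on the pseudocount. Lmnb1 (comp23366_c0_seq1), the nuclear lamina protein, had 1.60, 1.70 and 1.79 CPM in SEN libraries and 17.4, 10.1 and 21.2 CPM in PRO libraries (-3.25 ± 0.28, adjusted p = 1.57e-08). Hmgb1 (comp1509_c0_seq1), a chromatin protein, had 28.8, 28.0 and 32.4 CPM in SEN libraries and 200, 247 and 227 CPM in PRO libraries (-2.92 ± 0.19, adjusted p = 5.64e-10). Both fell to near-equal levels in the 3 SEN libraries. Hmgb2, its close relative, had 9.62, 13.7 and 7.12 CPM in SEN libraries and 15.2, 22.3 and 14.8 CPM in PRO libraries, a called change of -0.78 ± 0.22 (adjusted p = 0.00521). The Hmgb2 groups did not overlap, but its value was 0.20 on log2(TPM + 1), so its direction rests on the scaling, while it lay below the median of all tested transcripts on both scales, at -1.05 and -0.43. Lig4, the ligase of double-strand break repair by end joining, went the other way, with 2.41, 2.12 and 2.35 CPM in SEN libraries and 0.319, 0.602 and 0.409 CPM in PRO libraries (2.40 ± 0.35, adjusted p = 9.54e-06).

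The cytokine transcripts rose by less, and most of them were at low counts. Il6, the pleiotropic inflammatory cytokine, had 1.06, 0.944 and 1.00 CPM in SEN libraries and 0.478, 0.258 and 0.273 CPM in PRO libraries (1.55 ± 0.41, adjusted p = 0.00387). The Il6 groups did not overlap, but every level was near 1 CPM or below. Csf1, which supports macrophages, had 94.4, 56.8 and 62.1 CPM in SEN libraries and 26.6, 23.7 and 12.4 CPM in PRO libraries (1.77 ± 0.52, adjusted p = 0.00738). Il18 had 33.5, 29.5 and 34.3 CPM in SEN libraries and 19.4, 16.8 and 14.8 CPM in PRO libraries (0.93 ± 0.20, adjusted p = 0.000579). These 3 cytokines kept their calls with any library left out. Il7 changed by 1.51 ± 0.44 and lost its call without SEN replicate 1 (adjusted p = 0.0539). Il8 (0.56 ± 0.22) and Il10 (1.16 ± 0.46) overlapped between groups. Without a library the Il8 adjusted p was 0.177 (PRO 1), 0.0701 (PRO 2), 0.0676 (SEN 1) or 0.169 (SEN 2), and in the fit of only the 6 SEN and PRO libraries it was 0.241, or 0.181 with the replicate number added as a block. The Il10 adjusted p was 0.117 without PRO 1, 0.156 without PRO 3, 0.0797 without SEN 1 and 0.134 without SEN 3. Il21 was not tested, with 12 reads over the SEN libraries and 1 over the PRO libraries.

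Several senescence transcripts had almost no reads in PRO libraries, so only ratios of summed reads with intervals, or bounds against a floor of 3 reads over a group, are given. Adam10l, a membrane protease of the ADAM family, had 128 reads in SEN and 2 in PRO, a ratio of 36.9 after scaling (exact 95% interval 10.0 to 307.8, counting error only). The entry bgal, closest to beta-galactosidase, had 26 reads in SEN and 1 in PRO, a ratio of 15.0 (2.46 to 614.3). Itgb4, the integrin of hemidesmosomes, had 41 reads in SEN and none in PRO, at least 7.88-fold higher. All 3 were called higher, but they rest on few molecules.

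Other lysosomal entries had higher levels in SEN. The lists for lysosome, p53 targets, matrix, secreted factors, antiviral, epithelial and white blood cell genes were drawn mostly from 1 study table. As read here, it keeps only transcripts with a large rise in SEN, so the direction of those members was fixed by the choice. Panel entries made up 1 of 9 lysosomal, 4 of 17 matrix, 3 of 15 secreted and 1 of 13 epithelial members. Another secreted member came from a list of rises in myotubes. The values of all these lists are a description with no test. Among the 9 lysosomal entries, log2 fold changes ran from 1.64 upward. Subunit B of the vacuolar proton pump (comp2819_c1_seq1), which acidifies lysosomes, had 61.2, 54.8 and 59.0 CPM in SEN libraries and 16.5, 18.4 and 21.4 CPM in PRO libraries (1.64 ± 0.18). A subunit of the membrane part of the same pump (comp7623_c0_seq1) had 39.4, 43.3 and 44.7 CPM in SEN libraries and 12.1, 16.0 and 7.84 CPM in PRO libraries (1.83 ± 0.31). For both, every SEN library was above every PRO library. The calcium channel mucolipin 1 stood at 1.65 ± 0.24.

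Of the 3 entries for p53 targets, Ppm1d (comp36956_c0_seq1), a phosphatase that in mammals is induced by p53 and dampens its signal, had 30.6, 31.8 and 30.1 CPM in SEN libraries and 10.0, 7.73 and 8.83 CPM in PRO libraries (1.79 ± 0.18). The SEN values were close to each other and well above PRO. PLK3 (1.68 ± 0.38) and apoptotic protease activating factor, of the apoptosome (1.74 ± 0.45) were at similar changes. Entries for Mdm2 and Cdkn1a, the most used p53 targets, were not among the names read here.

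The myogenic label of the cells was examined with its markers. Myf5 (comp460329_c0_seq1), a myogenic regulator of progenitors, had 90.0, 91.8 and 90.4 CPM in SEN libraries and 458, 570 and 289 CPM in PRO libraries (-2.27 ± 0.22, adjusted p = 8.22e-08). It was thus read in all 6 libraries, with SEN libraries nearly identical and PRO libraries well above. Myog, which drives terminal differentiation, had 29.1, 36.5 and 35.3 CPM in SEN libraries and 47.9, 64.0 and 59.8 CPM in PRO libraries (-0.77 ± 0.22, adjusted p = 0.00721), but its value was 0.15 on log2(TPM + 1). The muscle creatine kinase Ckma stood at 0.328, 0.262 and 0.430 CPM in SEN libraries and 0.605, 1.07 and 0.989 CPM in PRO libraries (-1.34 ± 0.35). Neither group had more than about 1 CPM of this myotube marker. In bulk RNA, fewer cells of a type and less RNA per cell cannot be told apart.

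The differentiation panel, mostly myosin heavy chains, held calls in both directions. Of 21 transcripts 17 were tested, of which 3 were called higher, 4 lower and 10 were not called, beside 28.2% higher and 22.6% lower of all tested. The median was 0.27 beside 0.27 for all tested transcripts (0.18 with a transcript without PRO reads set to its bound). That closeness rested on PRO replicate 3, without which 5 were called higher and 3 lower, at a median of 0.77 beside 0.24. The 3 higher ones were Myo18b and Myo10, which are unconventional myosins and not sarcomeric motors, and Myh6.1. Myo18b had 29.8, 40.9 and 27.8 CPM in SEN libraries and 11.2, 12.7 and 5.93 CPM in PRO libraries (1.72 ± 0.23, adjusted p = 3.13e-06). Myo10, a motor of filopodia, had 11.8, 7.03 and 9.19 CPM in SEN libraries and 2.20, 3.70 and 1.33 CPM in PRO libraries (1.97 ± 0.30, adjusted p = 1.64e-05). Both were separated in every library. Each of the other tested heavy chains was below 2 CPM in both groups, apart from Myo18a, an unconventional myosin at 0.0859 to 2.49 CPM over the 6 libraries. Myh6.1 (1.04 ± 0.39) overlapped between groups and lost its call with only the 6 libraries in the fit (adjusted p = 0.148, or 0.115 with the replicate block) and without PRO 1 (0.0914), PRO 3 (0.115), SEN 2 (0.169) or SEN 3 (0.0911). Myh3.1, at 0.0965, 0 and 0.0717 CPM in SEN libraries and 0.191, 0.301 and 0.239 CPM in PRO libraries, changed by -1.92 ± 0.67 and lost its call without PRO 2 (0.0709), PRO 3 (0.0526) or SEN 2 (0.0662).

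A list of 23 other muscle entries also split. Of the 21 not taken from the table of SEN rises, 6 were called higher (28.6%, beside 28.2% of all tested), 7 lower (beside 22.6% of all tested) and 8 were not called, with a median of -0.38. These 21 were named in a list of rises in myotubes over PRO, with entries of the SEN rises set apart. Their shares are shaped by that choice and are a description with no test. Without PRO replicate 3, 4 of the 23 were called lower in place of 7. On log2(TPM + 1) 2 were, beside 801 of all 23107 tested transcripts. Among the higher ones, desmin, the muscle intermediate filament protein, had 20.8, 16.5 and 16.0 CPM in SEN libraries and 6.79, 6.36 and 7.43 CPM in PRO libraries for comp1273_c0_seq2 (1.37 ± 0.22). The skeletal ryanodine receptor, a calcium release channel, stood at 1.25 ± 0.17. Lower ones included parvalbumin, a calcium buffer of fast fibres (-3.42 ± 0.49), and SMYD1, a methyltransferase needed for sarcomere assembly (-2.32 ± 0.29). Tropomyosin alpha-1 had 692 to 846 CPM in SEN libraries and 1390 to 1745 CPM in PRO libraries (-1.08 ± 0.28), but its value was 0.13 on log2(TPM + 1). The fast troponin C entry had no reads in SEN and 15 in PRO, all in PRO replicate 3, without which there was no call (adjusted p = 1.00).

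Matrix proteases rose in SEN under every scaling tried, while the lower calls of a protease inhibitor held under count scalings only. The panel of proteases and clotting factors holds 10 transcripts, of which 5 were called higher, 4 lower and 1 was not called. Of all tested transcripts 28.2% were called higher and 22.6% lower. On both TPM scales limma called 6 higher and 0 lower, so each lower call below was lost there. Of all 23107 tested transcripts limma called 14317 higher and 801 lower on log2(TPM + 1), and 15808 and 809 on log2(TPM + 0.1). The loss of lower calls is thus not particular to this panel. Mmp3/10a (comp19400_c0_seq1), a stromelysin-type matrix protease, had 170, 108 and 125 CPM in SEN libraries and 18.9, 24.6 and 14.1 CPM in PRO libraries (2.81 ± 0.28, adjusted p = 1.05e-07). Mmp9th (comp4145_c0_seq1), related to gelatinase B, had 2659, 1348 and 2175 CPM in SEN libraries and 753, 724 and 381 CPM in PRO libraries (1.73 ± 0.33, adjusted p = 0.000172). It was 1 of the 4 transcripts called higher at 1000 CPM or more, where the median was -1.51. Mmp3/10b, at lower counts, stood at 1.67 ± 0.24.

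Timp1.1 (comp6073_c0_seq1), closest to the metalloproteinase inhibitor TIMP1, had 7142, 5477 and 6096 CPM in SEN libraries and 26102, 23629 and 16624 CPM in PRO libraries. The groups were far apart, and the change of -1.83 ± 0.33 (adjusted p = 0.000106) was close to the median of -1.51 of transcripts at that level. On log2(TPM + 1) it was -0.61 (limma adjusted p = 0.196). Timp1.2 was also lower, at 0.328, 0.157 and 0.269 CPM in SEN libraries and 0.797, 0.816 and 0.886 CPM in PRO libraries (-1.68 ± 0.28, adjusted p = 5.04e-05). Timp1.3 (-1.21 ± 0.50) overlapped between groups, with an adjusted p of 0.199 without PRO 2, 0.110 without PRO 3, 0.0954 without SEN 1 and 0.140 without SEN 2. Among clotting factors, F11, a serine protease of the intrinsic pathway, had 110, 65.2 and 106 CPM in SEN libraries and 19.5, 22.2 and 15.8 CPM in PRO libraries (2.29 ± 0.33, adjusted p = 8.16e-06). F8, a cofactor in the activation of factor X, stood at 1.49 ± 0.40. F10 itself was lower, with 21.1, 20.4 and 22.4 CPM in SEN libraries and 35.4, 46.5 and 36.8 CPM in PRO libraries (-0.89 ± 0.21, adjusted p = 0.00132). The protease-activated receptor F2RL3 was not called (-0.33 ± 0.19), but with only the 6 libraries and the replicate block it was called lower (-0.44, adjusted p = 0.0395, or 0.107 without the block).

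**Figure D3:**
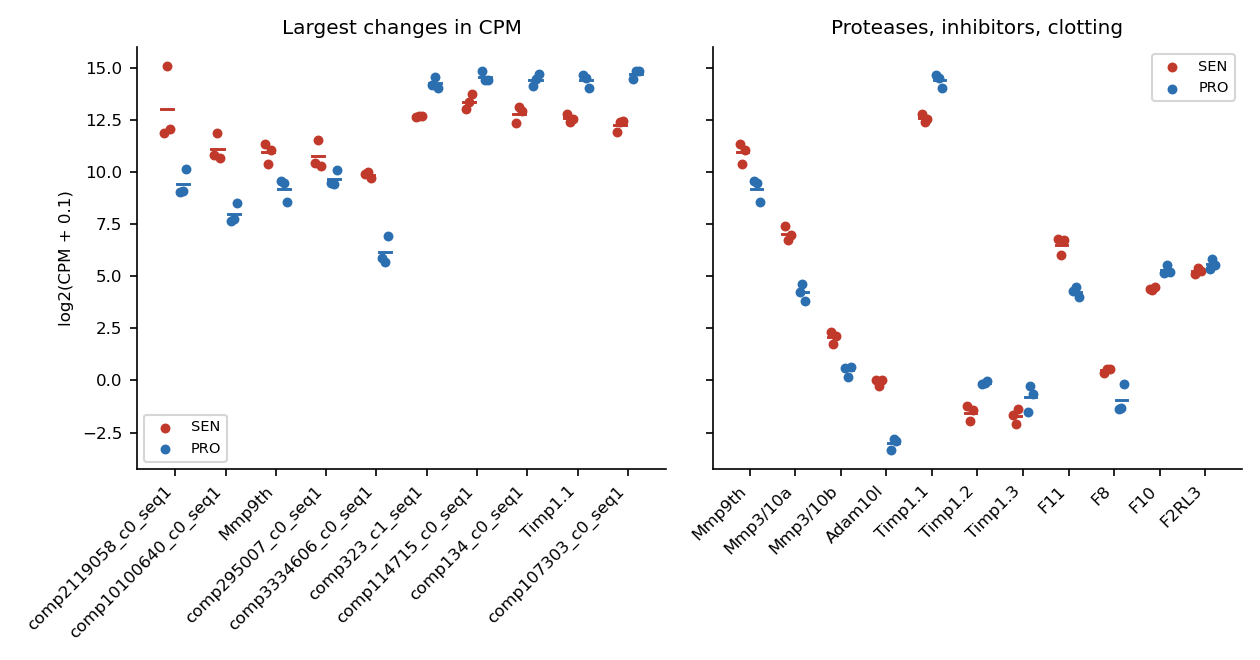
Level in each library, as log2(CPM + 0.1), of the 10 transcripts with the largest gains and losses in mean CPM (left) and of proteases, their inhibitors and clotting transcripts (right), with SEN in red to the left of PRO in blue and bars at the mean of 3. Timp1.1 lies lower in all 3 SEN libraries, and Mmp9th and Mmp3/10a lie higher.

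Among matrix entries, all from names chosen as described above, Tenascin C (comp26997_c1_seq1), a matrix glycoprotein of healing and regenerating tissue, had 148, 213 and 139 CPM in SEN libraries and 69.2, 49.8 and 32.7 CPM in PRO libraries (1.72 ± 0.24). The collagen-modifying lysyl hydroxylase 1 entry had 54.9 to 72.1 CPM in SEN libraries and 16.5 to 24.4 CPM in PRO libraries (1.68 ± 0.19). Levels in SEN were above PRO in every library for both. A laminin beta 1 entry (1.80 ± 0.28), collagen XVIII (2.19 ± 0.46) and the basement membrane proteoglycan perlecan (2.51 ± 0.30) covered the basement membrane. Among secreted factors, TGF beta 2 (comp185990_c0_seq1), which arrests many cell types and induces matrix, had 8.01, 4.27 and 3.84 CPM in SEN libraries and 0.892, 0.473 and 0.648 CPM in PRO libraries (2.98 ± 0.40). Properdin factor B, of the alternative complement pathway, had 228, 110 and 147 CPM in SEN libraries and 38.5, 32.3 and 32.1 CPM in PRO libraries (2.23 ± 0.33). Tissue factor, which starts clotting, had 24.9, 13.3 and 14.6 CPM in SEN libraries and 2.90, 3.82 and 3.78 CPM in PRO libraries (2.33 ± 0.30). IGFBP7, a secreted protein linked in mammals to senescence, stood at 1.85 ± 0.24.

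Fibroblast growth factors signal through receptor tyrosine kinases and drive division in the regenerating limb. Of 10 FGF transcripts 8 were tested, and 5 were called higher and 1 lower, beside 28.2% and 22.6% of all tested transcripts. The median was 1.28 beside 0.27 for all tested transcripts, and 0.90 beside 0.63 on log2(TPM + 1). On log2(TPM + 0.1) it was 1.36 beside 1.18. Fgf7, a secreted ligand made by mesenchyme, had 5.31, 5.77 and 6.72 CPM in SEN libraries and 1.53, 1.89 and 2.08 CPM in PRO libraries (1.70 ± 0.19, adjusted p = 4.02e-07). Fgf19 had 7.88, 8.65 and 4.73 CPM in SEN libraries and 2.55, 2.49 and 1.84 CPM in PRO libraries (1.63 ± 0.33, adjusted p = 0.000319). Fgf10, the limb bud mesenchymal ligand, stood at 0.93 ± 0.26, and the groups did not overlap for any of these 3. Fgf8, the ligand of the limb apical ridge in amniotes, was at 1.68, 2.73 and 1.90 CPM in SEN libraries and 2.01, 2.62 and 1.84 CPM in PRO libraries (-0.04 ± 0.25), with overlapping groups. The intracellular FGF homologous factors, which bind sodium channels and are not secreted, differed among themselves. Fgf12 had 10.3, 11.5 and 8.59 CPM in SEN libraries and 3.03, 3.27 and 2.80 CPM in PRO libraries (1.74 ± 0.20, adjusted p = 6.87e-07). Fgf14 had 32 reads in SEN and 3 in PRO, a ratio of 6.15 (1.92 to 31.4), and lost its call without PRO 1 (adjusted p = 0.0506) or PRO 3 (0.0714). Fgf13 was lower (-0.64 ± 0.24), but lost its call without PRO 1 (0.192), SEN 2 (0.0540) or SEN 3 (0.0966) and turned to 0.45 on log2(TPM + 1).

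The FGF receptors were tested in all 5 entries, and 3 were called higher, beside 28.2% of all tested transcripts. Fgfr1 had 15.0, 6.82 and 10.5 CPM in SEN libraries and 2.23, 2.02 and 1.09 CPM in PRO libraries (2.60 ± 0.41, adjusted p = 2.53e-05). Fgfr2.1, whose closest hit is FGF receptor 3 of another newt, had 9.42, 9.94 and 8.07 CPM in SEN libraries and 2.07, 2.23 and 1.81 CPM in PRO libraries (2.17 ± 0.20, adjusted p = 4.95e-08). Fgfr2.2 stood at 0.77 ± 0.21. Every SEN library exceeded every PRO library for these 3 entries. Fgfr2.2 and Fgfr3.1 share a closest hit, so their names do not settle which receptor each is. Fgfr3.1, at 81.8, 51.7 and 95.0 CPM in SEN libraries and 75.0, 101 and 121 CPM in PRO libraries, was not called (-0.38 ± 0.23), nor was Fgfr3.2 (-1.17 ± 0.49, adjusted p = 0.0536). With only the 6 libraries and the replicate block both were called lower, at -0.51 (adjusted p = 0.0487, or 0.129 without the block) and -1.30 (adjusted p = 0.0210, or 0.0405 without it).

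Wnt ligands are secreted lipid-modified proteins that act through beta-catenin or through cell polarity routes. Of 17 Wnt ligand entries 12 were tested, and 7 were called higher and 2 lower, beside 28.2% and 22.6% of all tested transcripts. The median was 1.34 beside 0.27 for all tested transcripts, and 0.82 beside 0.63 on log2(TPM + 1). On log2(TPM + 0.1) it was 2.24 beside 1.18. Wnt5b, a ligand mainly of the routes without beta-catenin, had 14.9, 13.8 and 11.6 CPM in SEN libraries and 3.22, 4.86 and 1.60 CPM in PRO libraries (2.07 ± 0.27, adjusted p = 2.42e-06). Wnt2b had 58.7, 41.2 and 57.5 CPM in SEN libraries and 17.3, 12.9 and 34.9 CPM in PRO libraries (1.27 ± 0.29, adjusted p = 0.000920). Wnt10b stood at 1.76 ± 0.37 and Wnt7bb at 2.57 ± 0.58. For all 4 the groups did not overlap. SEN replicate 2 stood apart for 2 Wnt entries. The entry comp3405575_c0_seq1 (Wnt11b) had 3.86, 0.551 and 4.23 CPM in SEN libraries and 0.605, 0.859 and 0.443 CPM in PRO libraries (2.21 ± 0.53), so that SEN 2 lay within PRO. Wnt1 had 1.53, 0.0262 and 1.52 CPM in SEN libraries and 4.17, 4.04 and 6.55 CPM in PRO libraries (-2.22 ± 0.72, adjusted p = 0.0139), and lost its call without PRO 3 (0.0521). Wnt4 (-0.89 ± 0.37) turned to 0.08 on log2(TPM + 1) and kept its call only without SEN 1, with adjusted p of 0.0956, 0.109, 0.0582, 0.128 and 0.138 without PRO 1, PRO 2, PRO 3, SEN 2 and SEN 3. Wnt2 (-0.45 ± 0.25) was not called, and with only the 6 libraries and the replicate block it was called lower (-0.58, adjusted p = 0.0205, or 0.0646 without the block).

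Downstream, both beta-catenin entries were higher, while the target Axin2 and the inhibitor Dkk1 were not called in the main fit. Of these 4 entries 2 were thus called higher and 0 lower, beside 28.2% and 22.6% of all tested transcripts. Ctnnb1.s.2 had 236, 202 and 213 CPM in SEN libraries and 69.0, 70.2 and 83.7 CPM in PRO libraries (1.55 ± 0.19, adjusted p = 1.38e-06). Ctnnb1.s.1 stood at 0.83 ± 0.24 and lost its call without SEN 2 (adjusted p = 0.0530). Without that library 1 pathway entry in place of 2 was called higher, and 1 in place of 0 lower. Of all 23107 tested transcripts 5630 were called higher and 4713 lower in that fit. Axin2, a direct target of beta-catenin signalling in vertebrates, had 0.386, 0.734 and 0.502 CPM in SEN libraries and 0.828, 0.945 and 0.750 CPM in PRO libraries (-0.65 ± 0.28, adjusted p = 0.0558). Its groups did not overlap, and it was called lower under RLE scaling (-0.77, adjusted p = 0.0248) and in DESeq2 (-0.78, adjusted p = 0.0313). With only the 6 libraries it was not called (adjusted p = 0.109, or 0.0612 with the replicate block). The secreted inhibitor Dkk1 had 95.0, 80.5 and 63.3 CPM in SEN libraries and 60.2, 78.4 and 42.2 CPM in PRO libraries (0.40 ± 0.26), with overlapping groups.

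BMPs are TGF beta family ligands that pattern and ossify the limb, and chordin, noggin and related proteins bind and block them. Of 5 BMP ligand entries 2 were called higher and 1 lower, beside 28.2% and 22.6% of all tested transcripts. Their median was 0.78 beside 0.27 for all tested transcripts, and 0.35 beside 0.63 on log2(TPM + 1). On log2(TPM + 0.1) it was 0.92 beside 1.18. Bmp7 (comp177537_c1_seq2) had 1478, 1177 and 1278 CPM in SEN libraries and 3977, 4944 and 2840 CPM in PRO libraries (-1.58 ± 0.22, adjusted p = 5.48e-06), without overlap. That change again lay near the median of -1.51 at this level, and on log2(TPM + 1) it was -0.36 and not called (limma adjusted p = 0.240). Bmp2 (comp2391140_c0_seq1, 1.47 ± 0.50) and Bmp5 (1.45 ± 0.53) were below 1 CPM in all 6 libraries, and with only the 6 libraries in the fit neither was called (adjusted p = 0.0689 for Bmp2 and 0.102 for Bmp5, or 0.0587 and 0.0877 with the replicate block). Without a library, the adjusted p of Bmp2 was 0.0930 (PRO 1), 0.102 (PRO 3) or 0.0502 (SEN 3), and that of Bmp5 was 0.147 (PRO 1), 0.0650 (PRO 2) or 0.0979 (SEN 3). The second Bmp2 entry, Bmp2.2, had 26.2, 19.1 and 30.2 CPM in SEN libraries and 21.5, 28.6 and 34.1 CPM in PRO libraries (-0.16 ± 0.21).

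Antagonists and receptors of BMPs were called higher in 5 of 9 tested entries and lower in 1, beside 28.2% and 22.6% of all tested transcripts. The median was 1.38 beside 0.27 for all tested transcripts, and 0.86 beside 0.63 on log2(TPM + 1). On log2(TPM + 0.1) it was 2.10 beside 1.18. Chordin (Chrd) had 5.10, 2.04 and 3.26 CPM in SEN libraries and 0.319, 0.344 and 0.273 CPM in PRO libraries (3.48 ± 0.40, adjusted p = 5.90e-07). Nog2, a noggin, had 14.5, 11.2 and 10.9 CPM in SEN libraries and 5.70, 4.98 and 3.00 CPM in PRO libraries (1.42 ± 0.26, adjusted p = 0.000121). Vwc2, closest to the chordin-like protein brorin, stood at 3.03 ± 0.63, and the entry that the study calls Cd247.1, whose closest hit is a Kielin/chordin-like protein, at 2.82 ± 0.85. In these 4 every SEN library was above every PRO library. Cd247.2, with the same closest hit as Cd247.1, was not called (-0.81 ± 0.47, adjusted p = 0.154), and its groups overlapped. The receptor Bmpr1b.1 (1.38 ± 0.45) lost its call without PRO 2 (adjusted p = 0.0504), PRO 3 (0.0855) or SEN 1 (0.0712). Grem1 overlapped between groups (0.16 ± 0.37).

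Of the MAP kinase panel of 10 transcripts, 4 were called higher, 4 lower and 2 not called, beside 28.2% higher and 22.6% lower of all tested. On log2(TPM + 1) 5 were called higher and 1 lower, beside 14317 and 801 of all 23107 tested. Mapk8, the stress kinase JNK1, had 0.946, 0.970 and 0.807 CPM in SEN libraries and 10.7, 12.6 and 4.43 CPM in PRO libraries (-3.35 ± 0.31, adjusted p = 4.71e-08). Hras, a small GTPase upstream of the ERK cascade, had 1.83, 1.81 and 1.34 CPM in SEN libraries and 4.46, 7.18 and 5.39 CPM in PRO libraries (-1.77 ± 0.25, adjusted p = 6.24e-06). Neither overlapped between groups, but on log2(TPM + 1) limma called Mapk8 (-1.26, adjusted p = 0.000264) and not Hras (-0.43, adjusted p = 0.0528). Map3k7, the kinase TAK1 that acts below TGF beta receptors, had 57.7, 68.5 and 64.7 CPM in SEN libraries and 30.2, 36.6 and 29.8 CPM in PRO libraries (0.98 ± 0.23, adjusted p = 0.00127). Mapk4, an atypical MAP kinase, stood at 1.69 ± 0.42. Mapk8ipl was lower at -0.69 ± 0.23, but its value was 0.22 on log2(TPM + 1), and its adjusted p was 0.0547 without SEN 1 and 0.0734 without SEN 3.

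**Figure D4:**
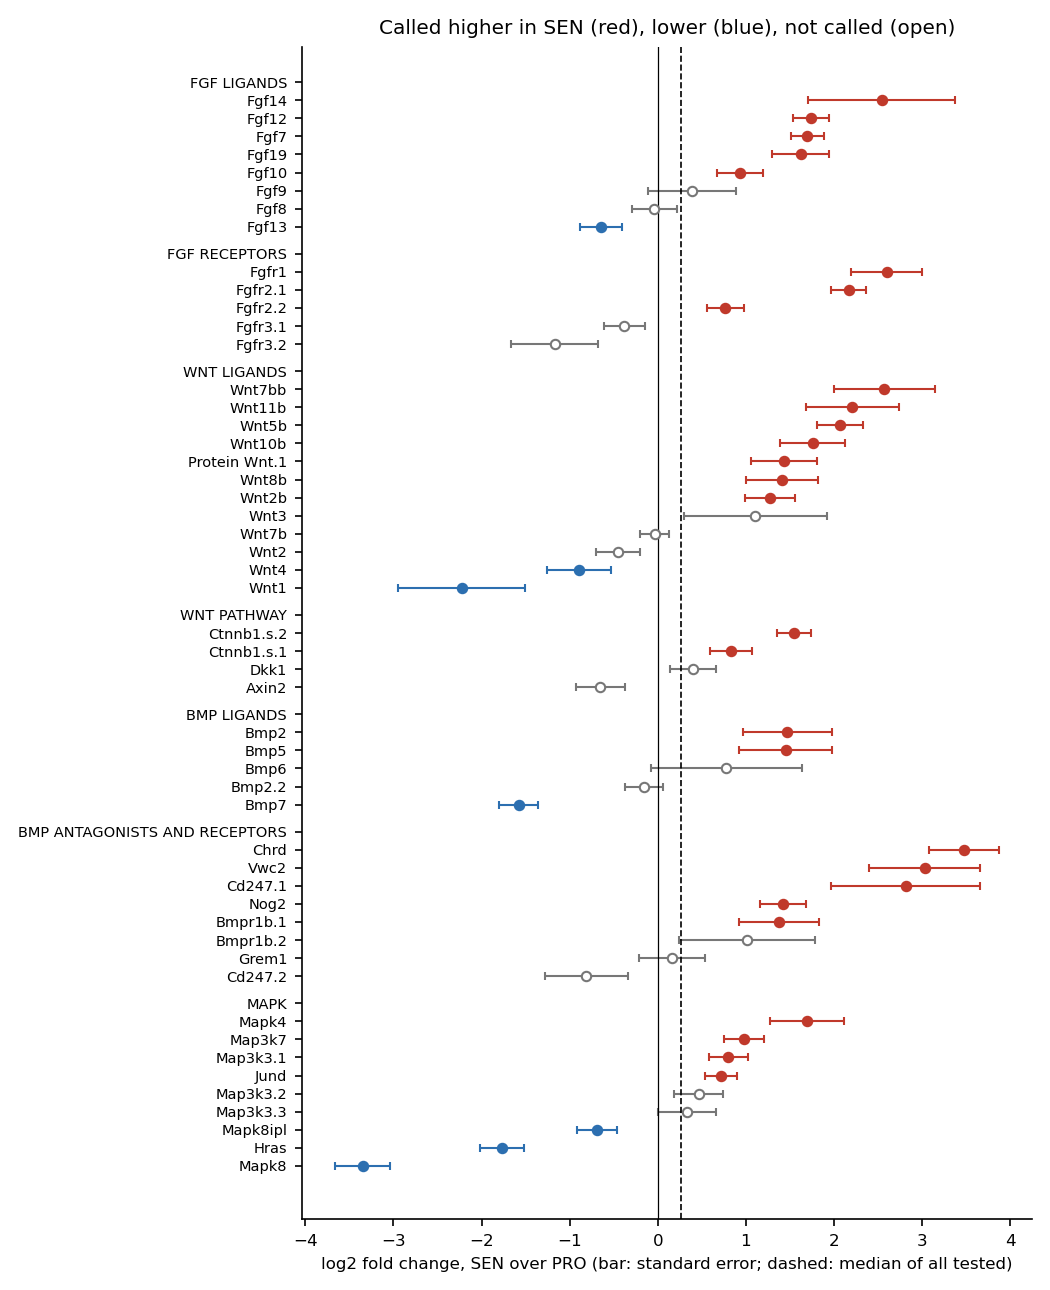
Log2 fold change of SEN over PRO, with its standard error, of tested FGF, Wnt, BMP and MAP kinase transcripts. Filled red points were called higher, filled blue points lower and open points not called, and the dashed line is the median of all tested transcripts, 0.27. Chrd at 3.48 and Mapk8 at -3.35 mark the ends of the range.

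Levels of markers of other cells also differed, but all 6 white blood cell entries and 12 of 13 epithelial ones came from the table of SEN rises, so their direction was again fixed by the choice, and their part in the results was not tested. The white blood cell entries summed to 365.3 to 761.0 CPM in SEN libraries and 94.6 to 112.6 CPM in PRO libraries. Nearly all of it came from LAPTM5 (comp2400_c0_seq1), a lysosomal membrane protein of blood cells in mammals, with 756, 361 and 543 CPM in SEN libraries and 111, 102 and 94.0 CPM in PRO libraries. The lymphocyte kinase entry had 0.446 to 0.618 CPM in SEN libraries and 0.0637 to 0.0859 CPM in PRO libraries. Integrin beta-2, the common leukocyte integrin, had 0.108 to 0.405 CPM in SEN libraries and was at 0 in PRO replicates 2 and 3. The 13 epithelial entries summed to 35.3 to 74.1 CPM in SEN libraries and 11.9 to 15.2 CPM in PRO libraries. St14a, a matriptase-type membrane protease, had 58.5, 19.1 and 49.1 CPM in SEN libraries and 10.3, 6.70 and 11.9 CPM in PRO libraries and made up most of the sum. Of 2 entries for E-cadherin, the defining epithelial adhesion protein, one was read in SEN replicate 1 alone (0.328 CPM) and the other was at 0.412 to 0.599 CPM in SEN libraries and 0.0956 to 0.215 CPM in PRO libraries.

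Entries of innate antiviral defence, from the same table of rises, were highest in SEN replicate 1 for the 2 described here. The 2',5'-oligoadenylate synthetase A entry, which activates RNA decay on sensing double-stranded RNA, had 204, 67.6 and 104 CPM in SEN libraries and 41.6, 23.7 and 36.1 CPM in PRO libraries (1.89 ± 0.32). The RNA sensor Ddx58 had 6.58, 3.38 and 5.13 CPM in SEN libraries, every one above all PRO libraries (2.19 ± 0.26). SEN replicate 2 was the lowest of the 3 SEN libraries for both. Retroelement-like entries numbered 67. Of the 33 not taken from SEN rises, 29 were tested and 5 called higher (17.2%, beside 28.2% of all tested) and 1 lower. These 33 were named in the list of rises in myotubes over PRO, with entries of the SEN rises set apart. That choice took SEN rises out, so the share is a description with no test. Entries whose closest hit is a flavobacterium numbered 38, of which 15 came from the table of SEN rises. The summed level of all 38 was 55.8 to 67.3 CPM in SEN libraries and 14.1 to 19.3 CPM in PRO libraries, a direction that this choice favoured. Of 17 tested outside the SEN rises 3 were called higher (17.6%, beside 28.2% of all tested) and 1 lower. They too came from the list of myotube rises, and the same limit holds for their share. Whether these are newt transcripts was not tested.

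Many of the steepest and the most abundant changes were in entries without a name in the study tables read here. Outside the panels, those tables as read list rises in SEN or in myotubes. A name was at hand for 1504 of 6526 transcripts called higher and for 81 of 5229 called lower. A missing name thus does not mean an unknown protein. Of the 10 largest falls among well-covered transcripts (-6.03 to -5.05) 3 had names, Ccnb1, Cdc20 and Cdk1a, and of the 10 largest rises, from 4.11 upward, 5 had a closest hit, all uncharacterised proteins. The entry comp313919_c0_seq10 had 40.4, 50.1 and 51.0 CPM in SEN libraries and 1827, 2545 and 1923 CPM in PRO libraries (-5.47 ± 0.29, adjusted p = 8.01e-11), a fall like that of the mitotic regulators from a much higher count. The entry comp107303_c0_seq1 had 3895, 5379 and 5695 CPM in SEN libraries and 22823, 29551 and 30176 CPM in PRO libraries (-2.46 ± 0.27), the greatest loss in mean CPM. Of the rises, comp1942749_c0_seq1 had 4.19, 4.17 and 1.42 CPM in SEN libraries and no read in any PRO library, at least 87.4-fold higher. The gain of comp2119058_c0_seq1 was the greatest in mean CPM but uneven, with 3813, 34924 and 4311 CPM in SEN libraries and 523, 542 and 1131 CPM in PRO libraries. SEN replicate 2 stood about an order of magnitude above its fellows there, and all 3 SEN libraries were above PRO.

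**Figure D5:**
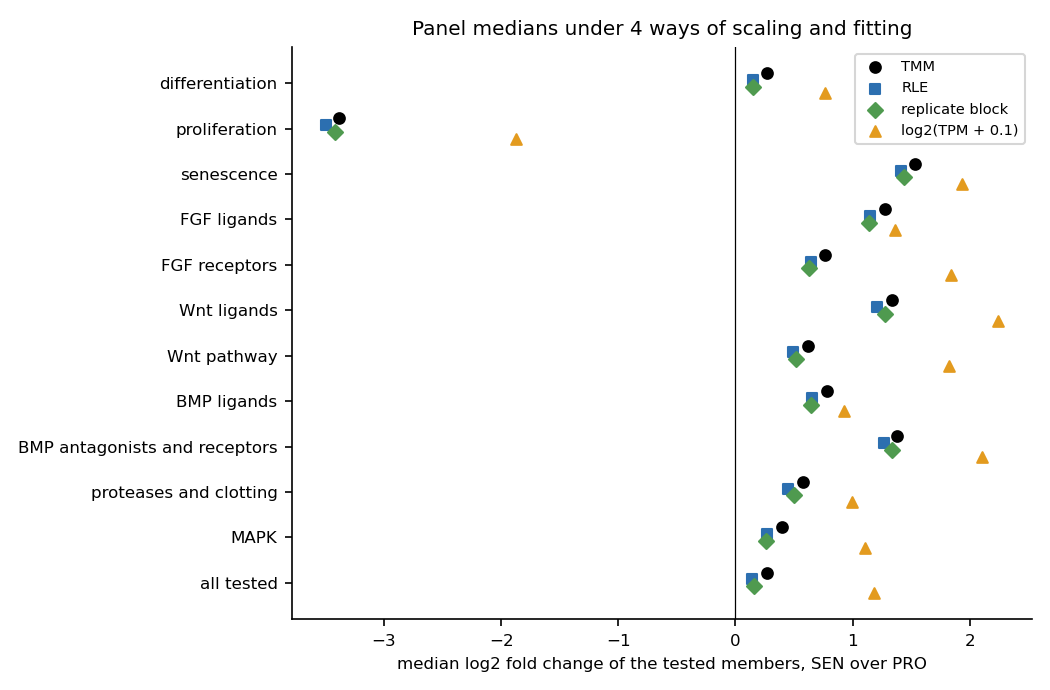
Median log2 fold change, SEN over PRO, for tested members of each of the 11 panels and of all tested transcripts under TMM, RLE, the replicate block and limma on log2(TPM + 0.1). The proliferation panel lies far below 0 under each, and the panel medians above 0 stay above 0, while the median of all tested transcripts moves between 0.14 and 1.18.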

How the data were processed

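The authors trimmed reads with Trim Galore and used Sailfish (version: not given in the sources used here) to assign them to a de novo transcriptome. The deposited estimated counts are reads per entry without normalization, and TPM, also deposited, is the abundance that the authors' Sailfish run scaled for length and depth. Deposited lengths were not used.

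Rounded counts of all 18 libraries entered 1 edgeR model (version 4.0.16, under R 4.3.3) with a mean for each of the 6 groups, TMM factors and the filterByExpr filter. The contrast SEN minus PRO had a quasi-likelihood F test, p-values adjusted by Benjamini-Hochberg and a threshold of 0.05, and a standard error is the size of the log2 fold change divided by the root of F. As alternatives, RLE factors, DESeq2 1.42.0, no filter, the 6 libraries alone, the 6 libraries with a replicate block, limma 3.58.1 on TPM with a pseudocount of 1 or 0.1, and omission of each library were run. TPM entered limma without TMM or RLE factors. Deviations from the group mean of same-numbered SEN and PRO libraries correlated at 0.375, 0.370 and 0.431, and all differently numbered ones negatively. With deviations centred in each group, positive values for same numbers force negative ones on balance elsewhere, so the negative signs are no separate evidence. From the same-numbered values, the replicate numbers of the labels were taken to pair the libraries. The main fit had no replicate block. Log2 levels correlated at 0.982 to 0.994 within SEN, 0.982 to 0.988 within PRO and 0.924 to 0.947 between them. The fit was also run on simulated counts in which few transcripts were changed, equally in both directions. That run cannot show how the scaling acts on changes as wide as those here.

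Names come from supplementary tables of the study, used for identity only. Their identifiers do not go with their names, so rows were matched to entries by identical normalised counts (124 of 124 panel rows). Members, the 11 panels and the 10 name lists were chosen with earlier results of these data known. Transcripts were named if the study's text names them, if they were among the largest called changes of a panel or went against its majority, if they were among the 10 largest rises or falls with at least 50 mean reads and no overlap, if they were among the 5 largest gains or losses in mean CPM, or if they had the highest levels of a name list. Myog, Ckma, TGF beta 2 and several smaller changes that complete a panel or list were chosen after their values were seen. A few members of these panels and lists were counted in them but are not reported here by name.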

Additional observations from a re-analysis of the deposited data

How the results depend on the processing

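The share of calls that were higher in SEN depended on the scaling and on the libraries in the fit. It was 55.5% under TMM, 48.4% under RLE, 48.2% in DESeq2, 46.7% with only the 6 SEN and PRO libraries, 49.1% with those 6 and the replicate block, and 94.7% and 95.1% on log2(TPM + 1) and log2(TPM + 0.1), and ranged from 53.1% to 56.1% with a library left out. The number of calls ranged from 10343 to 11116 with a library left out and was 11994 with the replicate block, which kept 10869 of the 11755. Among panel transcripts Myh6.1, Bmp2, Il8 and Bmp5 were not called with only the 6 libraries, with or without the block. Without the block further calls were lost. There 9 senescence, 4 FGF ligand and 3 MAP kinase transcripts were called higher, in place of 11, 5 and 4. RLE and DESeq2 also called 9 senescence transcripts higher. On log2(TPM + 1) and log2(TPM + 0.1) the direction turned for Wnt4 (0.085 and 0.21), Fgf13 (0.45 and 1.23), Hmgb2 (0.20 and 0.23), tropomyosin alpha-1 (0.13 and 0.13) and comp114715_c0_seq1 (0.0249 and 0.0249). Outside the naming rule, Myog (0.15) and Mapk8ipl (0.22) also turned on log2(TPM + 1). TPM carried no TMM or RLE factor, and the medians of all tested transcripts on the 2 scales were 0.63 and 1.18. All of these turned values lay below those medians except that of Fgf13 on log2(TPM + 0.1). Of 23107 tested transcripts 14317 and 15808 were called higher there, and 801 and 809 lower. The count of differentiation transcripts called lower on those scales was 1 and 2 in place of 4. On log2(TPM + 0.1) 8 FGF ligands in place of 5 were called higher. BMP ligands called higher numbered 1 in DESeq2, 0 with only the 6 libraries and 0 with the replicate block, in place of 2, and 0 to 2 with a library left out. Wnt pathway entries called higher numbered 1 to 2 with a library left out, and 1 in place of 0 was called lower under RLE and in DESeq2. The causes were not tested. On both TPM scales no protease or clotting transcript was called lower in place of 4, 1 MAP kinase transcript in place of 4 and 2 muscle entries in place of 7. Over the alternatives for transcripts chosen by the rule, 1410 values kept direction and call, 75 lost the call and 10, all on the TPM scales, reversed direction. Depth limits transcripts under about 1 CPM, and 3 libraries a group cannot give an exact p below 0.1.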
